A study of Mus musculus with 4 samples.

Results

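Strong, stable distal regions were taken as wild-type (WT) ATAC-seq peaks that met a rule on position and a rule on signal in both genotypes. The WT summit had to lie over 5 kb from both ends of every protein-coding gene of the mouse annotation, and the peak had to overlap a peak of the double-knockout (dKO) list. Each peak's pileup, the number of fragments stacked at its summit, was divided by the median pileup of its own list, and this scaled pileup had to be at least 3 in both lists. The WT/dKO ratio of scaled pileups, divided by its median over all overlapping pairs (1.10) and called the centred ratio here, had to lie between 0.8 and its reciprocal. The regions were thus chosen by the pileups themselves. The rule found 1930 of them. They were 5.69% of the 33892 distal peaks shared by the genotypes, and 62.7% of the 3078 shared distal peaks that reached the strength threshold in both lists. Of the other strong distal pairs, 723 had a centred ratio above that window (WT-higher, 23.5%) and 425 a ratio under 0.8 (dKO-higher, 13.8%).

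The cells were hair follicle stem cells from dorsal skin of males aged 70 days (P70), when follicles rest in their second telogen. Both WT mice carried floxed Nfib, floxed Nfix and the R26-YFP reporter and no Cre; their cells were sorted as DAPI-negative, Sca-1-negative, integrin α6-positive and CD34-positive. Both dKO mice carried the same alleles together with Sox9-CreER, a tamoxifen-inducible Cre expressed under Sox9 control, and their cells passed the same gates and were also YFP-positive. The WT gate did not use YFP, so the groups differed in Cre, reporter selection and genotype at once, and deletion of Nfib and Nfix was not checked here. One peak list was deposited per genotype for 2 mice each, so the spread between mice could not be measured. Intervals given here cover counting error only, and no difference between the genotypes was tested.

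ATAC-seq maps open chromatin by letting the Tn5 transposase cut and tag accessible DNA, and a peak marks a promoter, an enhancer or another site cleared of nucleosomes. NFIB and NFIX are nuclear factor I transcription factors, which bind a palindromic TTGGC motif and act in hair follicle stem cells at enhancers. Distal open regions include enhancers, the start sites of alternative transcripts, and sites of CTCF, the zinc-finger protein that anchors chromatin loops.

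The distance rule used the outer ends of each gene and therefore let through starts that lie inside a gene, as well as starts of noncoding genes. The regions below show this. Each window runs from 250 bases before to 50 bases after a start annotated by RefSeq on GRCm38.p6, is written 5′ to 3′ on the strand of its gene, and holds the WT summit of a strong stable region. The windows were picked after their values were seen: a strong region with its summit in a noncoding start window, the strongest region whose window holds a CTCF motif, starts of 3 genes with known roles in skin or in the nucleus, and noncoding starts beside Egfr and miR-205. Capitals mark every match, on either strand, to any of the 13 motifs counted further on, where the letters of the short ones are given. The windows of 5430416N02Rik (chr5:100429486-100429785, minus strand), Pde4dip (chr3:97767965-97768264, minus strand), Runx1 (chr16:92697280-92697579, minus strand), Prdm1 (chr10:44458699-44458998, minus strand), Lmna (chr3:88503303-88503602, minus strand), Egfros (chr11:16830629-16830928, minus strand) and Mir205hg (chr1:193510161-193510460, minus strand) read as follows.
5430416N02Rik: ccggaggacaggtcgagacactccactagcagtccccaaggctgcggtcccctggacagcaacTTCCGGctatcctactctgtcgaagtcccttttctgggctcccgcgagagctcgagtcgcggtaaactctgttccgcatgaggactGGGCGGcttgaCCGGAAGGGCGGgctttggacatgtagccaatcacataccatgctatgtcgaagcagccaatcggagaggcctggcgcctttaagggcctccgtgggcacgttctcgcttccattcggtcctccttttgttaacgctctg
Pde4dip: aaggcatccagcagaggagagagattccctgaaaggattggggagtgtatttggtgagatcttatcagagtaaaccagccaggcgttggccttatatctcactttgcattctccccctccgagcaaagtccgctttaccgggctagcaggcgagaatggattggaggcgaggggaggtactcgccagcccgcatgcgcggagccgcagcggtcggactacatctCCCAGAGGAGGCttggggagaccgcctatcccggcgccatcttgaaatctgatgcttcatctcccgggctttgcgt
Runx1: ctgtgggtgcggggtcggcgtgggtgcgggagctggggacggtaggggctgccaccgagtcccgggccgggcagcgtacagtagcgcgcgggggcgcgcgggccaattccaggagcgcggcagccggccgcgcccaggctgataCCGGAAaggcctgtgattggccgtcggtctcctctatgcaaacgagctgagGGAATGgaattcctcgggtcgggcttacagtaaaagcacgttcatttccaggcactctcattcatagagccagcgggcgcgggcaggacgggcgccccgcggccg
Prdm1: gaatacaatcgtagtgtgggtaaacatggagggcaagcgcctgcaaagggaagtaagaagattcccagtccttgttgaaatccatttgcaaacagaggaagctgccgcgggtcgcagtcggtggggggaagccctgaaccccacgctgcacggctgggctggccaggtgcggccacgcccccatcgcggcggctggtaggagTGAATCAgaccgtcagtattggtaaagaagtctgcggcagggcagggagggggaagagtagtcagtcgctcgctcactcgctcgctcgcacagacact
Lmna: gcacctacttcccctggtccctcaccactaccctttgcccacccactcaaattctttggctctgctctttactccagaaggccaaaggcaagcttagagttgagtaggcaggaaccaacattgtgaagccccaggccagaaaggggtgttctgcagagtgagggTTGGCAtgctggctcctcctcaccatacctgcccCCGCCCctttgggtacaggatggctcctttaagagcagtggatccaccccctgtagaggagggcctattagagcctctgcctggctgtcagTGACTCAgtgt
Egfros: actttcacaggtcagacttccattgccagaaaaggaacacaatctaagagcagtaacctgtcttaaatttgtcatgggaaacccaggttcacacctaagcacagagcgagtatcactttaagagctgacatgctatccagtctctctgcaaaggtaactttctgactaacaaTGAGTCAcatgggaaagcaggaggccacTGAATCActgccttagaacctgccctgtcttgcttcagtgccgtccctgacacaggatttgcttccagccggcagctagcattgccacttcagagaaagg
Mir205hg: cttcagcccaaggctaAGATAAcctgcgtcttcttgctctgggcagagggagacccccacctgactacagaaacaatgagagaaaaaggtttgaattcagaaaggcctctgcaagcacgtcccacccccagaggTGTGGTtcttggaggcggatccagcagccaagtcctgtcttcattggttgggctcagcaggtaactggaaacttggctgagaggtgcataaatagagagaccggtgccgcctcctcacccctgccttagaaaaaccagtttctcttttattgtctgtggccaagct

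In the noncoding start 5430416N02Rik the capitals are ETS and KLF motifs, one of each side by side, and the pileup was 694 in WT and 402 in dKO. The capitals in Pde4dip, which encodes the centrosomal protein myomegalin, are a CTCF motif. Its pileup was 690 in WT and 390 in dKO, and both summits lay 5 bp apart. Runx1, a transcription factor of hair follicle stem cells, showed an ETS and a TEAD motif at a start 95.9 kb from the nearest outer gene end. The pileup there was 599 in WT and 244 in dKO with both summits on the same base, for a centred ratio of 1.16 (95% counting interval 0.998 to 1.34). Prdm1, which encodes the repressor BLIMP1, had an AP-1 motif and a WT peak over 2 dKO peaks, with a pileup of 378 in WT and 205 in dKO (centred ratio 0.870, interval 0.734 to 1.03). At Lmna, the gene of the nuclear lamins A and C, the window held an AP-1, a KLF and a short NFI motif, and the pileup was 561 in WT and 236 in dKO. The Egfros start lies inside Egfr, the gene of the epidermal growth factor receptor, and held AP-1 motifs at 2 places, with a pileup of 487 in WT and 196 in dKO. The Mir205hg start had a RUNX and a GATA motif and a pileup of 331 in WT and 167 in dKO. WT values exceeded dKO values at all of these, as the WT list had the higher pileups throughout (medians below); after scaling, the 7 centred ratios lay between 0.814 and 1.17.

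Some microRNA hairpins lay near strong stable regions: 7 of 1005 hairpins had a WT summit of such a region within 2 kb. Other distal pairs were not counted in this way, so the number does not set the stable regions apart. Mature sequences (RefSeq, GRCm38.p6) are given for the better known of these, let-7i and miR-193a, and for miR-205, an abundant skin microRNA, with the seed, bases 2 to 8, in capitals.
miR-205-5p: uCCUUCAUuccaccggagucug
let-7i-5p: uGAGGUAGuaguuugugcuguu
miR-193a-3p: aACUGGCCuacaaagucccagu

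No seed was shared among these. The miR-205 hairpin lay 2.75 kb from the summit of the Mir205hg region. The region beside let-7i (summit 0.686 kb away) had a pileup of 273 in WT and 129 in dKO, a centred ratio of 0.998 (interval 0.809 to 1.23). Beside miR-193a (0.864 kb away) the pileup was 342 in WT and 134 in dKO, a centred ratio of 1.20 (interval 0.986 to 1.47).

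The WT list held 68192 peaks and the dKO list 63545 outside the mitochondrial genome, with median pileups of 73 and 38. Of 10 bulge stem cell markers, 9 had a peak within 1 kb of a gene end in both lists; Trp63, whose epidermal form starts inside the gene, did not. Among markers of other skin cells, 0 of 4 immune markers were open in either list. Of the endothelial markers 2 of 4 were open in both lists (Kdr and Tek), with no peak at Pecam1 or Cdh5. Fibroblast markers counted 3 of 4 in WT (Col1a1, Col1a2 and Pdgfra) and 2 in dKO, where Pdgfra had no peak. Melanocyte and nerve markers counted 3 of 7 in both (Pmel, Mitf and Dct), with no peak at Tyr, Tyrp1, Mlana or Sox10. At Pmel the pileup was 668 in WT and 327 in dKO, and at Mitf 451 and 230. Both lay above each of the 10 bulge markers in both genotypes. The measure takes any peak within 1 kb of either gene end, and whether the peak belongs to that gene was not checked. Summed scaled pileups of these lists in WT and dKO were 38.7 and 33.1 (bulge), 1.77 and 1.18 (endothelial), 4.15 and 2.42 (fibroblast) and 17.8 and 16.7 (melanocyte and nerve). What part other cells had in any result was not tested.

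Among the 1930 regions the WT pileup ran from 219 through a median of 361 to 1047, and the dKO pileup from 114 through 168.5 to 598. The scaled pileup had a median of 4.95 in WT and 4.43 in dKO, and the centred ratio a median of 1.01 with quartiles at 0.914 and 1.12. These values chose the regions and are given as a description. At the thresholds, a WT pileup of 219 was inside and 218 outside, and a dKO pileup of 114 inside and 113 outside. Centred ratios of 0.80028 and 1.24997 were the outermost inside, next to 0.79955 and 1.25074 outside. Summits 5007 bp and 4998 bp from a gene end fell on either side of the distance rule. Counting error alone was wide against the ratio window: at both pileup thresholds the 95% interval of a ratio reached about 25.4% above and 20.3% below its value. The interval lay wholly within the window for 405 of the 1930 regions, 21.0% (95% Wilson interval 19.2 to 22.9). Conversely it lay wholly outside for 37.6% of the WT-higher pairs (34.2 to 41.2) and 36.7% of the dKO-higher pairs (32.3 to 41.4). Many single regions near the edges of the window could therefore not be placed on one side of it at this depth.

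**Figure D1:**
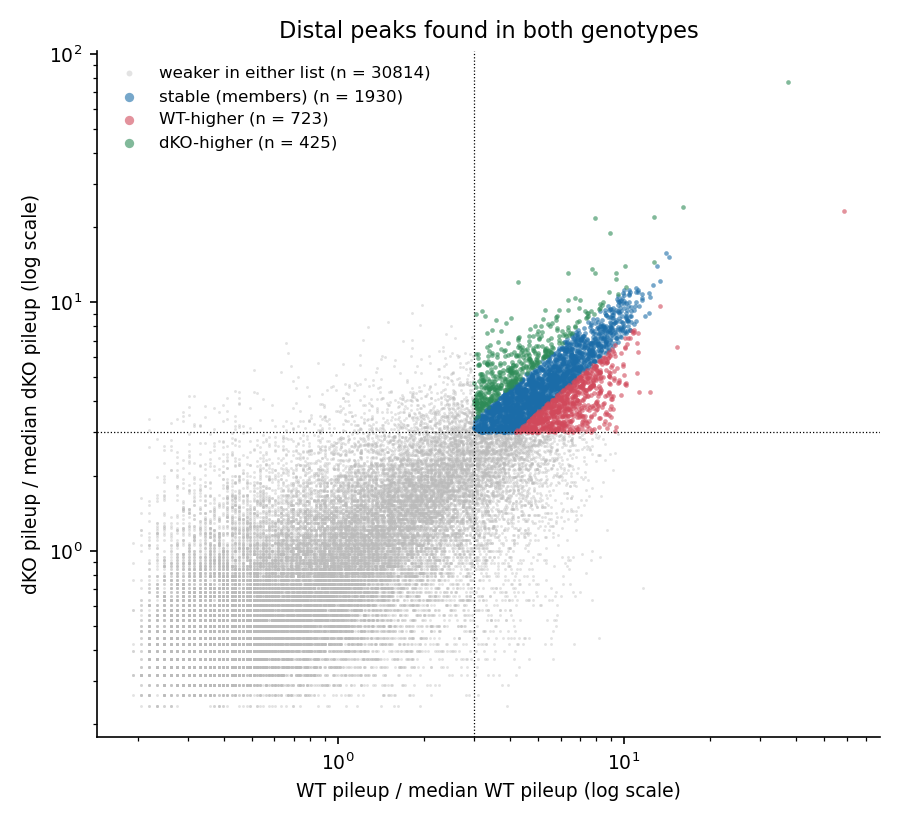
Scaled pileup (pileup divided by the list's median; both axes logarithmic) in WT and dKO for all 33892 distal peaks found in both lists, 1 point per overlapping pair; dotted lines mark the strength threshold of 3. The 1930 stable regions form the diagonal band above both thresholds, between 723 WT-higher and 425 dKO-higher pairs.

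All distal pairs, weak ones included, fell in the same ratio window in 34.3% of cases, against 62.7% of the strong ones. Among strong pairs within 5 kb of a gene end, 5325 of 6748 (78.9%) did. Weak pairs carry more counting error, and its part in these shares was not tested. Both sets of strong pairs passed the same strength threshold, but their strengths above it were not compared.

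The strongest region lay 23.0 kb from Tdrd3 (chr14:87567740-87569188, between genes), with a pileup of 1027 in WT and 598 in dKO and the summit on the same base in both lists. Next was a region 235.0 kb from Irx1, an Iroquois homeobox transcription factor gene (chr13:72197964-72199471), with 1047 in WT and 579 in dKO. A region 8.62 kb from Slc2a3, which encodes a glucose transporter, had 951 in WT and 530 in dKO. All 3 had centred ratios below 1, at 0.810 (0.732 to 0.896), 0.853 (0.770 to 0.944) and 0.846 (0.761 to 0.941). Between genes were also the regions near Fam135a (977 in WT, 461 in dKO), Pkhd1 (920 and 445), Ogfrl1 (891 and 415), Zfp958 (902 and 399) and Ttll10 (845 and 411), the last at the start of the noncoding gene Gm13648. Inside genes were those of Efnb2, which encodes the membrane ligand ephrin-B2 (820 in WT, 424 in dKO), Col4a1, a basement membrane collagen gene (807 and 419), Uggt2 (802 and 432) and Gm33989 (818 and 416). The Gm33989 region overlapped that gene's own annotated start. The 12 strongest regions thus lay both inside and far outside genes, and 10 of them overlapped no annotated start.

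Some regions combined high signal with great distance from any gene. The most remote lay 792.9 kb from Cdh6, a cadherin gene, with a pileup of 560 in WT and 221 in dKO. Regions 610.9 kb from Mef2c, a MADS-box transcription factor gene (591 and 317), 581.5 kb from Klf4, a regulator of epidermal differentiation (561 and 235), and 565.3 kb from Igfbp3, a binding protein of insulin-like growth factors (565 and 243) followed. Distance names no target, since an open region can act on a gene other than the nearest. Among the 193 strongest regions, the centred ratio came nearest to 1 near Fam135a, near Mtx2 (604 in WT, 285 in dKO), near Svep1 (807 and 381) and inside Jmjd1c, a histone demethylase family gene (773 and 365). All 4 ratios were 0.999.

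Peak width was not used by the rule. The regions had a median width of 1282 bp in WT (95% interval of the median 1257 to 1302) and 1186 bp in dKO (1165 to 1204), against 813 and 694 bp over all distal pairs. Because stronger peaks are wider, widths were compared at equal strength, by the geometric mean of both scaled pileups. In the bins from 3 to 4, from 4 to 6 and over 6 the WT medians were 1188, 1280 and 1375 bp in the stable regions. They were 1130, 1246 and 1291 bp in WT-higher pairs, and 1134, 1194 and 1295 bp in dKO-higher pairs. The stable regions had the widest WT median in each bin, within quartiles that overlapped broadly. In the dKO list this did not hold: in the same bins the medians were 1062, 1182 and 1292 bp in stable regions and 1164, 1176 and 1243 bp in dKO-higher pairs. The WT peak was the wider of each pair in 68.1% of stable regions (66.0 to 70.2), close to 66.2% of all distal pairs, and in 84.0% of WT-higher and 55.5% of dKO-higher pairs.

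**Figure D2:**
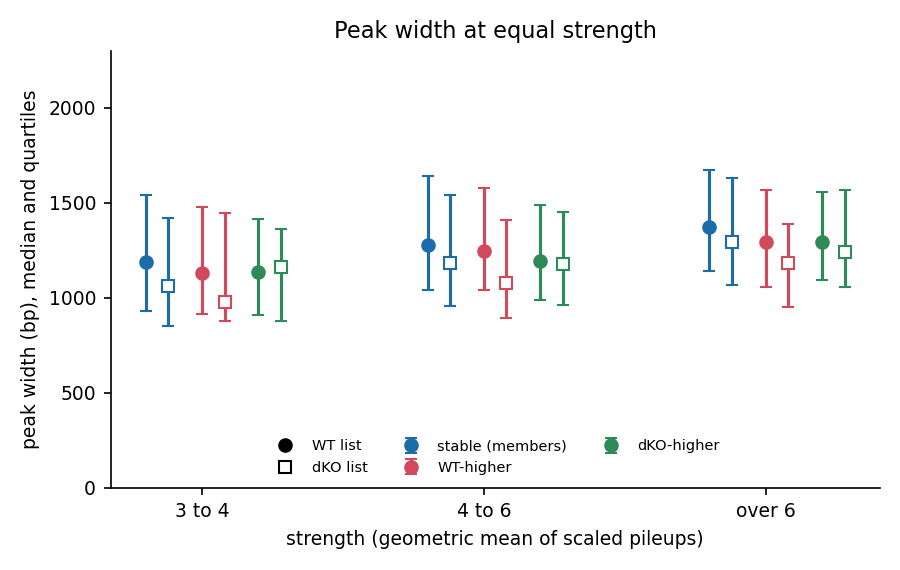
Peak width in bp (median, bars from lower to upper quartile) by strength for stable regions, WT-higher and dKO-higher pairs, filled circles for the WT list and open squares for the dKO list. Medians of stable regions in WT went from 1188 bp in the weakest bin to 1375 bp in the strongest, slightly above both other sets, with overlapping quartiles; in the dKO list the weakest bin was widest in dKO-higher pairs (1164 bp).

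The widest region, 4230 bp in WT and 4436 bp in dKO, lay inside Plec, the gene of plectin, which links keratin filaments to hemidesmosomes, and had a pileup of 500 in WT and 238 in dKO. Regions at annotated starts of Net1 (3373 bp in WT, 2348 bp in dKO), and Synj2, a phosphoinositide phosphatase gene (3267 and 3406 bp), were also among the 6 widest. The others lay near Olfr1368 (3361 and 3379 bp), near Shf (3336 and 1211 bp) and inside Schip1 (3262 and 3206 bp). The Shf region overlapped 2 dKO peaks, of which 1211 bp is the width of the higher one. Over all, 57 regions overlapped 2 or more dKO peaks, and 4 regions shared a dKO peak with another. In Schip1 the summits of both lists lay 2158 bp apart.

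The summit usually lay at nearly the same base in both genotypes. The median offset was 24 bp. It was within 50 bp in 61.6% of the regions (59.4 to 63.7), within 100 bp in 85.2%, and 0 in 424 of 1930, 22.0% (20.2 to 23.9). Over all distal pairs the share within 50 bp was 52.2% (51.7 to 52.7) and the share at the same base 8.0%. WT-higher pairs had 56.7% within 50 bp, 4.85 points fewer than the stable regions (95% interval of the difference 0.633 to 9.06). The interval included 0 at 25 bp (-0.114 to 8.41), at 100 bp (-0.00193 to 6.43) and at the same base (-0.237 to 6.55), and at 50 bp in the bins of strength from 3 to 4 and over 6, so no firm difference from WT-higher pairs was shown. For dKO-higher pairs the share was 61.9%, and the difference of -0.328 points had an interval from -5.43 to 4.77. The larger difference in summit placement was thus from the distal pairs as a whole, most of which were weaker.

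By position, 1021 of the 1930 regions lay inside a protein-coding gene body, 52.9% (50.7 to 55.1), and 909 between genes. The share was 45.2% in WT-higher pairs, 7.67 points lower (interval of the difference 3.42 to 11.9), and 50.8% in dKO-higher pairs, a difference of 2.08 points with an interval from -3.17 to 7.33. All distal pairs stood at 51.7%. The median distance to the nearest gene end was 27.2 kb (25.3 to 29.5) in stable regions, 33.1 kb (28.2 to 36.6) in WT-higher pairs and 38.7 kb (34.4 to 44.7) in dKO-higher pairs. Within 10 kb of a gene end were 19.8% of stable regions and 12.7% of dKO-higher pairs, a difference of 7.09 points (3.46 to 10.7).

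Annotated transcript starts, which the rule did not use, were examined next. Start windows were looked up for the 1857 regions outside chromosome 18; the 73 on chromosome 18 were not analysed for this. The WT peak overlapped a start window in 340 of 1857 regions, 18.3% (16.6 to 20.1), against 4.81% of all distal pairs and 3.69% of the weaker ones. For 237 (12.8%, 11.3 to 14.4) the start belonged to a protein-coding gene and for 103 (5.55%) to noncoding genes only. The WT summit itself lay in a window in 190 (10.2%). The name distal is therefore true of these regions only with respect to the outer ends of protein-coding genes.

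Starts were less frequent in WT-higher pairs, at 9.74% (7.76 to 12.2), a difference of 8.57 points (5.75 to 11.4). In dKO-higher pairs they reached 16.3%, and the difference of 2.05 points had an interval from -1.94 to 6.05. The gap to WT-higher pairs lay in protein-coding starts, at 12.8% against 4.01% (difference 8.75 points, 6.65 to 10.9). Noncoding starts stood at 5.55% against 5.73% (difference -0.184 points, interval -2.20 to 1.83). At equal strength, protein-coding starts took 9.40, 13.9 and 14.8% of stable regions from the weakest bin to the strongest, and 5.06, 4.10 and 3.05% of WT-higher pairs. The interval of the difference excluded 0 in the bins from 4 to 6 (6.88 to 12.7 points) and over 6 (7.37 to 16.1 points), and not in the bin from 3 to 4 (-1.07 to 9.74 points). For dKO-higher pairs the shares were 9.91, 7.21 and 20.5%, and the stable share was higher only in the middle bin (2.57 to 10.8 points).

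**Figure D3:**
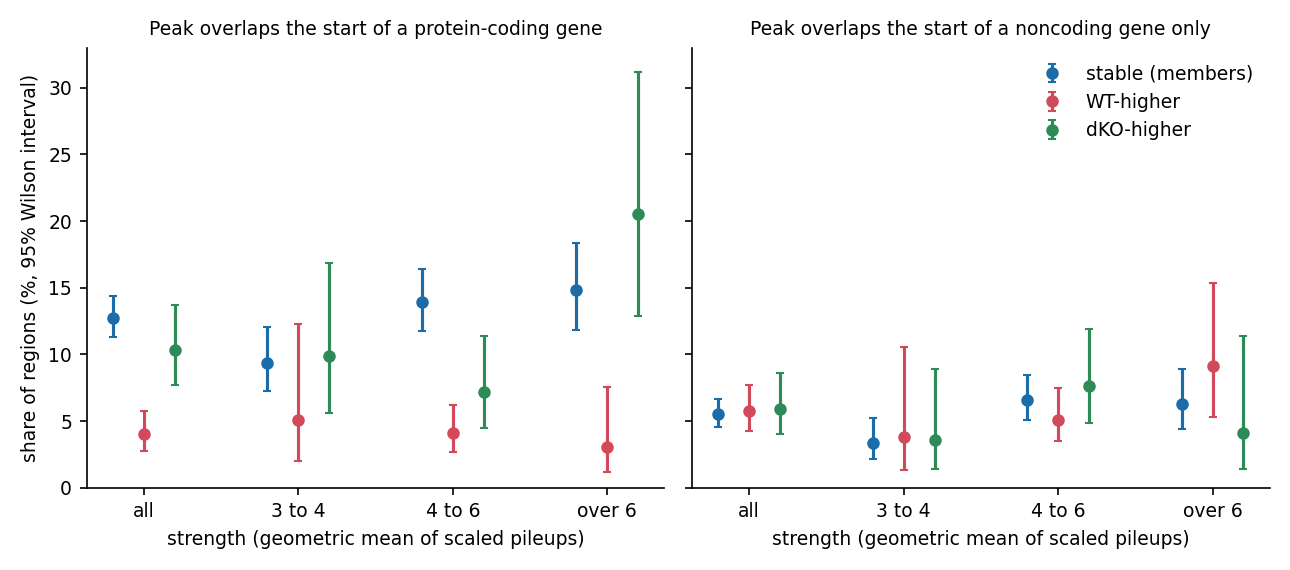
Share of regions in % (95% Wilson interval) whose WT peak overlaps an annotated start of a protein-coding gene (left) or of a noncoding gene only (right), for all strong pairs and by strength, chromosome 18 left out. Protein-coding starts stood at 12.8% in stable regions and 4.01% in WT-higher pairs, while noncoding starts were near 5.5 to 5.9% in each set as a whole.

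Regions with and without a start differed in shape and setting. The 340 with a start had a median WT width of 1460 bp and a median pileup of 390 in WT and 180.5 in dKO. The 1517 without one had 1242 bp, 355 and 165. A wider peak has more room to overlap a window. Inside gene bodies were 75.3% of the former (70.4 to 79.6) and 47.7% of the latter (45.2 to 50.2). Once regions with a start were left out of each set, WT-higher pairs had 44.9% in gene bodies, a difference of 2.74 points with an interval from -1.89 to 7.37. The difference in gene-body share from WT-higher pairs was therefore not detectable among regions without a start. Summits coincided about equally, within 50 bp in 60.9% of regions with a start and 61.4% of those without.

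Motifs were counted in the 212 start windows, of 197 genes, that held a WT summit of these regions, beside all 32851 start windows of the RefSeq table. Both strands were searched, and matches of different motifs may overlap. The CTCF core motif stood in 21 of 212 windows, 9.91% (6.57 to 14.7), as in the Pde4dip window above, against 3.43% of all windows and 6.76% (5.98 to 7.64) of windows at strong stable pairs within 5 kb of a gene end. It stood in 7 of 34 WT-higher windows (20.6%, 10.3 to 36.8), 1.92% of 52 dKO-higher windows and 5.81% (4.10 to 8.18) of 516 windows at weaker distal pairs. Among the stable windows it was found in 12.8% (8.32 to 19.1) at protein-coding and in 2 of 63 (3.17%) at noncoding starts. The AP-1 motif, TGANTCA, stood in 12.3% (8.51 to 17.4), as at Lmna, Prdm1 and Egfros, against 7.81% of all windows and 4.01% (3.41 to 4.71) at strong stable gene-end pairs. WT-higher windows held it in 14.7%, dKO-higher in 3.85% and weaker distal windows in 67 of 516, so neither motif set the stable regions apart from other distal pairs. The ETS motif, CCGGAA, was found in 23.6% (18.4 to 29.7) against 14.9% of all and 39.5% at gene-end pairs. At protein-coding starts alone it was 22.8% (16.8 to 30.2) against 18.7% of all protein-coding windows, an interval that includes the background. At noncoding starts it stood in 16 of 63 (25.4%, 16.3 to 37.3), an interval above the 7.94% of all lncRNA windows. The ETS motif stood in 29.4% (16.8 to 46.2) of WT-higher windows and 26.9% (16.8 to 40.3) of dKO-higher windows. Weaker distal windows held it in 67 of 516. The WT-higher and dKO-higher intervals included the stable share of 23.6%, so ETS did not set the stable regions apart from other strong distal pairs. The KLF motif, CCGCCC, was the most frequent, in 61.3% (54.6 to 67.6) against 35.7% of all and 74.2% at gene-end pairs. In WT-higher, dKO-higher and weaker distal windows it stood at 50.0, 46.2 and 36.0%. The GATA motif, AGATAA, was rarer than in all windows, at 2.36% (5 of 212) against 11.2%. Other strong pairs shared this: it was in 0 of 34 WT-higher windows, 1.92% of 52 dKO-higher windows and 3.67% (3.09 to 4.34) at gene-end pairs. Weaker distal windows held it in 12.4%. The short NFI motif, TTGGCA, stood in 10.8% (7.34 to 15.8), against 14.1% of all windows, 14.7% (6.45 to 30.1) of 34 WT-higher windows and 21.2% (12.2 to 34.0) of 52 dKO-higher windows. Shares of the other short motifs were 9.91% against 14.7% of all windows for TEAD, read as GGAATG, and 11.8% against 16.8% for RUNX, read as TGTGGT. They were 12.3% against 18.7% for SOX, whose letters were ACAAAG, and 3.30% against 5.29% for LHX, whose letters were TAATTA. In WT-higher, dKO-higher and weaker distal windows TEAD stood at 26.5, 5.77 and 20.3% (17.1 to 24.0 in the last). SOX stood at 8.82, 17.3 and 21.7% (18.4 to 25.5) there, RUNX at 14.7, 9.62 and 18.6%, and LHX at 2.94, 5.77 and 6.59%. The stable intervals of TEAD (6.57 to 14.7) and SOX (8.51 to 17.4) lay below those of weaker distal windows. The E-box CAGCTG stood at 16.5% against 16.3%. The full NFI palindrome was in 0 of 212, which allows up to 1.78% (Wilson), where 0.0365% of all windows hold it. The p63 motif was in 0 of 212 as well, against 0.557%; no match says only that these letters are not in the window. Base composition moved with these shares: the median GC content was 60.7% in windows of stable regions, 52.7% in all windows and 63% at gene-end pairs, with medians of 19, 7 and 24 CpG dinucleotides. Its part in the motif shares was not tested, and overlapping windows of 1 gene share bases. These counts cover starts only: the sequence of regions away from starts was not analysed here.

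**Figure D4:**
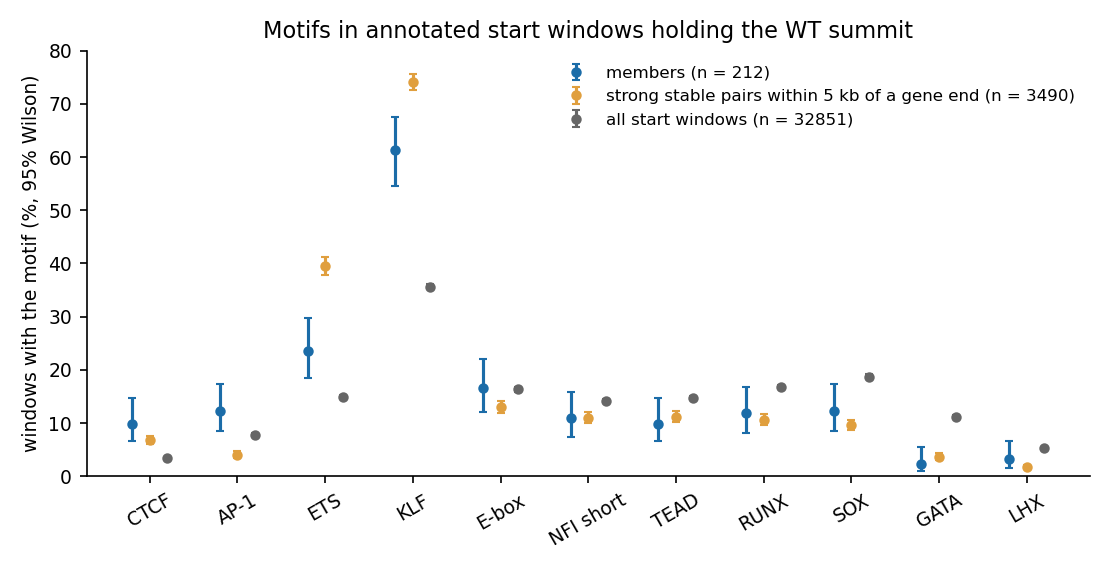
Share of annotated start windows in % (95% Wilson interval) that hold each of 11 motifs on either strand, for 212 windows holding the WT summit of a stable distal region, 3490 windows at strong stable pairs within 5 kb of a gene end, and all 32851 windows; the NFI palindrome and p63, at 0 in the first set, are not drawn. CTCF and AP-1 shares in stable distal windows were 9.91% and 12.3%, and KLF was the most frequent motif in each set.

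Stable regions had other open regions around them. The next WT peak lay at a median of 5.63 kb, and the median number of other WT peaks within 25 kb was 4, against 5 around WT-higher pairs and 3 around dKO-higher pairs and over all distal pairs. No other WT peak lay within 25 kb of 4.51% of stable regions, 2.77% of WT-higher pairs (difference 1.74 points, 0.230 to 3.25) and 9.65% of dKO-higher pairs (difference -5.14 points, -8.09 to -2.18), and of 9.92% of all distal pairs. Of the WT peaks around stable regions 79.6% overlapped a dKO peak, against 78.2% around WT-higher pairs, 81.9% around dKO-higher pairs and 76.2% around all distal pairs. Neighbouring regions share such peaks, so these shares are less precise than their counts imply.

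The next stable region, by contrast, was a median of 122.6 kb away. With gaps under 25 kb as the limit, 1455 regions stood alone, 336 formed 168 pairs, and 139 (7.20%, 6.13 to 8.44) formed 40 runs of 3 to 6 regions. The largest run held 6 regions within 31.5 kb, 14.4 to 45.9 kb outside Kmt2e, a gene of the SET-domain methyltransferase family. From the far end inward, the strongest had a pileup of 760 in WT and 407 in dKO, the next 641 and 368, and the weakest of the run 263 and 131. All 6 centred ratios were below 1, from 0.821 to 0.987. The strongest of the runs of 5 lay near Cxcl14, a chemokine gene, inside Tnfaip8, and inside Aff1, which encodes a scaffold of the super elongation complex. Near Cxcl14 the WT pileup went from 350 to 769 and the dKO pileup from 154 to 336, with all 5 centred ratios above 1 (1.02 to 1.20) and 1 WT-higher pair within the run. In Tnfaip8 all 5 were below 1 (0.877 to 0.993), and in Aff1 they lay from 0.802 to 1.08. No strong distal pair assigned to Kmt2e, Tnfaip8 or Aff1 was WT-higher or dKO-higher. Such pairs leave out peaks found in 1 list only. Those numbered 3 in WT and 0 in dKO at Kmt2e, 4 and 1 at Tnfaip8, and 5 and 4 at Aff1.

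A run of 4 near Sox9, picked out after its values were seen because Sox9 is a master regulator of these stem cells and drove the Cre, spanned 22.7 kb over 100 kb from the gene. From the gene outward, the pileups were 332 in WT and 160 in dKO, 376 and 181, 384 and 167, and 364 and 162. The Sox9 ratios, from 0.979 to 1.08, all lay near the middle of the window.

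By nearest protein-coding gene within 100 kb, 1749 regions were assigned to 1317 genes and 181 to none. Of these genes 1020 had 1 region, 216 had 2 and 81 had 3 or more. Sgms1, which encodes a sphingomyelin synthase, had the most, 8, all inside the gene and 1 of them at an annotated start. WT pileups in Sgms1 ran from 260 to 756 and dKO pileups from 114 to 318, with centred ratios from 0.822 to 1.24. Nhsl1 had 7 inside the gene (300 to 731 in WT, 143 to 360 in dKO) together with 2 dKO-higher pairs. Casz1, a zinc-finger transcription factor gene, had 7 (219 to 452 in WT, 118 to 191 in dKO), 5 of them inside the gene. Tenm2, which encodes a teneurin adhesion protein, had 6 (283 to 646 and 140 to 259). Sgk1, a kinase induced by serum and glucocorticoids, had 5 (262 to 862 and 129 to 335) and a WT-higher pair. Its strongest stable region, with 862 in WT and 335 in dKO, overlapped the start of the noncoding gene Platr6, and another, with 662 and 293, a start of Sgk1 itself. Tex44 (369 to 623 in WT), P3h2 (325 to 765) and Abtb2 (240 to 682) also had 5 each; 2 of those near Tex44, with 451 and 369 in WT, overlapped the same dKO peak of 198. Among the 12 genes taken, Nhsl1, Sgk1 and Cxcl14 had strong distal pairs outside the ratio window as well. Each of the 12 also had peaks found in 1 list only, which such pairs leave out. Bach2, Mast4 and Arf6 also had 5 regions and came after the others in summed WT scaled pileup. Bach2 had a WT-higher and a dKO-higher pair and Mast4 a WT-higher pair too. Long genes have more room for regions, and no gene was tested for more than its length would give.

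**Figure D5:**
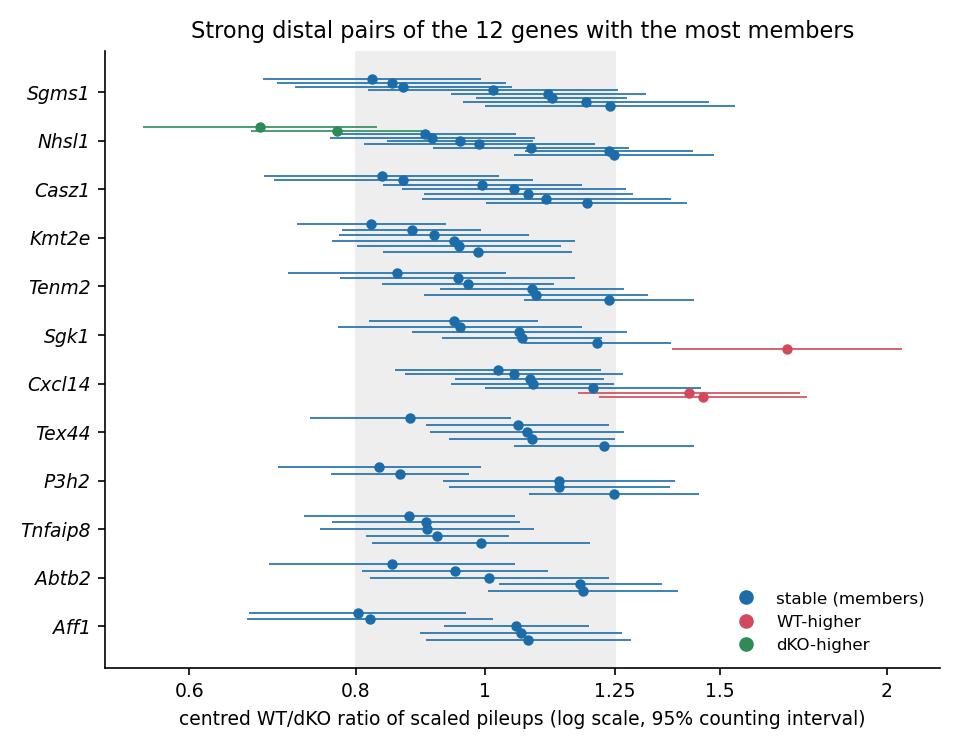
Centred WT/dKO ratio (logarithmic axis) of every strong distal pair assigned to the 12 genes with the most stable regions, 1 point per pair with its 95% counting interval; the grey band marks the ratio window. Nhsl1, Sgk1 and Cxcl14 each have pairs outside the band, and many intervals of stable regions cross its edges.

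Gene lists were described as stable regions among the list's strong distal pairs, beside 1749 of 2752 (63.6%) for all genes within 100 kb and the 62.7% of all strong pairs. Around bulge stem cell genes, which mark the quiescent niche, 14 of 24 pairs were stable (58.3%, 38.8 to 75.5), 9 WT-higher and 1 dKO-higher, and 8 of 20 genes had a stable region. Runx1 had 3 beside 1 WT-higher pair, all 3 inside the gene: the start shown above, one with 298 in WT and 146 in dKO, and one with 300 and 127. Nfatc1, a transcription factor that keeps these cells quiescent, had 2 (480 in WT and 197 in dKO; 428 and 180) beside 2 WT-higher and 1 dKO-higher pairs. Cd34, the sorting marker, had 2 (430 and 228; 393 and 186) beside 1 WT-higher pair. Over all genes 636 of 2752 strong pairs were WT-higher. The ratio chose these classes, so their counts are a description.

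Around genes of stratified epithelium and adhesion 17 of 24 pairs were stable (70.8%, 50.8 to 85.1), 5 WT-higher and 2 dKO-higher, over 11 of 30 genes. Krt5, Krt14 and Itga6 were in this list and in the bulge list, so the 1 stable region of Itga6 was counted in both. Trp63, the master regulator of stratified epithelia, had 615 in WT and 250 in dKO at 8.52 kb outside the gene, and 228 and 120 inside it, beside 1 dKO-higher pair. Cdh1, the gene of E-cadherin, had 552 in WT and 244 in dKO, and 381 and 148, both inside the gene. Pkp1, a desmosome gene, had 3 regions with WT pileups from 302 to 325 and dKO pileups from 137 to 153. None of the strong pairs of Cdh1 or Pkp1 lay outside the ratio window. Pairs leave out peaks found in 1 list only, of which Cdh1 had 6 in WT and 2 in dKO, and Pkp1 3 and 0.

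Hair and sebaceous lineage genes had 6 of 7 pairs stable (85.7%, 48.7 to 97.4), in 3 of 20 genes. Gata3, a regulator of the inner root sheath, had 651 in WT and 304 in dKO at an internal start (centred ratio 1.01, 0.881 to 1.16), and 283 and 134 at 53.9 kb from the gene. Trps1, a GATA-type repressor gene, had 3 regions inside the gene, with 394 and 157, 334 and 168, and 251 and 119. Prdm1 had the region shown above.

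Signalling genes of the Wnt, BMP, Notch and Hedgehog pathways had 15 of 24 pairs stable (62.5%, 42.7 to 78.8), 4 WT-higher and 5 dKO-higher, over 10 of 30 genes. Gli2, a transcription factor of Hedgehog signalling, had 4, with 321 in WT and 186 in dKO, 321 and 182, 254 and 140, and 251 and 121, beside 1 WT-higher pair. The Hedgehog receptor gene Ptch1 had 554 and 240, and 334 and 179 at an annotated start. Hes1, a target of Notch signalling, had 349 and 172, and 317 and 169. The Gli2 and Hes1 ratios all lay below 1, from 0.814 to 0.978 and from 0.885 to 0.957.

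AP-1, ETS and stress genes had the lowest share of the lists with over 20 pairs: 15 of 28 were stable (53.6%, 35.8 to 70.5), 11 WT-higher and 2 dKO-higher, over 9 of 20 genes. Fos, an AP-1 subunit gene induced by stress and dissociation, had 489 in WT and 207 in dKO, 368 and 165, and 344 and 176. Ets2 had 730 and 304, and 467 and 189, beside 3 WT-higher pairs. Klf6 had 565 and 236, and 256 and 116, beside 1 WT-higher and 1 dKO-higher pair. Chromatin and general regulators had 4 of 4 stable, all of Arid1b, a chromatin remodeller subunit gene (230 to 448 in WT, 126 to 230 in dKO). Markers of other skin cells had 0 of 1. The interval of each list included the share over all genes, so these counts did not set any list apart from it.

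Over the autosomes, stable regions were from 4.49% (3.62 to 5.55, chromosome 9) to 6.81% (5.61 to 8.25, chromosome 16) of the distal pairs of a chromosome. On the X chromosome, present in 1 copy in male cells, they were 19 of 690, 2.75% (1.77 to 4.26). Strong pairs were few there in all, 23, and 82.6% of them were stable (62.9 to 93.0). Fewer pairs thus reached the strength threshold on the X, while the share of those within the ratio window was not lower than elsewhere.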

How the data were processed

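Accessibility was measured by ATAC-seq in sorted hair follicle stem cells, 4 mice in all, 2 per genotype. One MACS2-style peak list per genotype was deposited, and the sources used here do not say how mice were combined. The submitters' processing notes name Bowtie2 2.2.9, Picard and MACS2, and the builds mm10 and GRCm38. Per the file headers, the deposited columns give the pileup signal at each summit, the fold enrichment over local background, and the -log10 p-value and q-value; the pileup was used, and fold and q-value only in alternatives. Every deposited peak had a q-value of at most 0.05. The median pileup, 73 in WT and 38 in dKO, stands for depth.

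Mitochondrial peaks (5 in WT, 3 in dKO) were left out. Peaks overlapping by at least 1 bp were paired, each WT peak with its overlapping dKO peak of highest pileup; bedtools 2.31.1 gave the same 51449 paired WT peaks. Gene ends of 21900 protein-coding genes came from RefSeq GRCm38.p6. The 95% intervals are Wilson intervals for shares, order-statistic intervals for medians, normal intervals for differences of shares, and log-scale Poisson intervals for ratios, treating the pileup as a count. Python 3.11.15, numpy 2.4.6, pandas 2.3.3 and scipy 1.17.1 were used. The sorting into stable, WT-higher and dKO-higher was checked on a simulated dKO list. That list kept the WT coordinates, so it could not test the pairing. No share of correctly sorted pairs is given here, so how well pairs near the thresholds of pileup and ratio were sorted is not shown. The planned motif count around each summit needed genome sequence that was not used here, and annotated start windows took its place. Those windows were added after seeing the data.

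The regions and the gene lists were chosen with earlier results of these data known. Named regions and genes were, by rule, the 12 strongest regions, the 12 genes with the most regions, up to 3 genes per list, the 4 longest runs, the 4 most remote regions, the 6 widest, the 4 with a ratio nearest to 1 among the 193 strongest, and those next to each threshold.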

Additional observations from a re-analysis of the deposited data

How the results depend on the processing

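The number of stable regions moved by over 1.5 times under 4 of 16 alternatives: 3170 at a scaled pileup of at least 2, 1179 at 4, 999 with a ratio window of 0.9 to its reciprocal, and 12 with fold enrichment in place of pileup. Only 4 regions of that last set were among the 1930. Fold enrichment had to reach the same multiple of its median, although it spread less than pileup. Over all distal pairs its WT median was 6.95 and its upper quartile 9.86, against 77 and 157 for pileup. The small overlap therefore cannot separate a stricter cut from a different choice of regions. The fold-enrichment set is too small to compare: median width 909 bp, summits within 50 bp 100%, gene bodies 33.3% and runs 0%. Alternatives that held the number could still change the members. They kept from 74.4% (all annotated genes) to 100% of the 1930 regions, with 76.3% at a q-value of 1e-05 and 78.4% without centring.

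For the other 4 measures, median WT width was 1207 bp at a scaled pileup of 2, 1318 bp at 4, 1306.5 bp at a q-value of 1e-05 and 1242 bp without annotated starts (chosen after seeing the data). Summits within 50 bp became 65.1% when summits had to lie within 200 bp. The gene-body share was 55.5% with gene ends at 2 kb, 59.5% with all annotated genes, 50.1% at a scaled pileup of 4, 47.7% without annotated starts, 57.3% in the strength bin from 3 to 4 and 48.5% over 6. Runs held 13.3% at a scaled pileup of 2, 4.58% at 4, 4.0% at a ratio of 0.9 to its reciprocal, 10.2% at 0.67 to 1.5, 4.78% without centring, 5.92% with all annotated genes and 5.62% at a q-value of 1e-05. Start windows, all chosen after seeing the data, gave 10.2% when the summit had to lie inside, and 12.8, 20.5 and 21.1% by strength. Of the gene lists, AP-1, ETS and stress reached 75% within 20 kb, and all genes 65.7% when each gene within 100 kb was counted. The other alternatives, 12 for the number, 10 for width, 16 for summits, 11 for gene bodies, 7 for runs, 14 for gene lists and 13 for motifs, stayed within the limits set.

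No paired analysis was possible because 1 list stands for both mice of a genotype and the replicate numbers are not shared; leaving out a mouse was not possible either. Motif windows around summits, in either width planned, were not run. Pileups of 114 to 219 at the thresholds limit what a single ratio can show, and no result has a spread between mice.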
